A study of Mus musculus with 12 samples.

Results

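The genes described here encode the protein subunits of the mitochondrial ribosome (mitoribosome), named Mrpl for the large and Mrps for the small subunit. They were chosen by name alone: every probe set with a single annotated symbol of Mrpl or Mrps followed by digits, without pseudogenes, and the brightest probe set of a gene over the 12 arrays. This gave 77 genes from 85 probe sets, 48 Mrpl and 29 Mrps, of 19937 genes with a symbol on the array. All 77 lay above the filter on dim genes, with means over the 12 arrays between 7.69 and 11.83 on the log2 scale. By structure, 50 of them belong to the large subunit and 26 to the small subunit, because the products of Mrps18a and Mrps30 are large subunit proteins despite their names. The remaining gene, Mrps36, carries the name of a subunit but is now known to encode a component of the 2-oxoglutarate dehydrogenase complex.

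RNA came from cells of mouse T cell acute lymphoblastic leukaemia clone #483, of C57BL6 background. Cells received 4EGI-1 at 100 µM for 2 h or served as control. 4EGI-1 keeps eIF4E, which binds the mRNA cap, from joining the scaffold eIF4G, through which the small ribosomal subunit reaches an mRNA. The labels call the control cells untreated, and the protocol text names DMSO, the solvent. From each treatment, RNA of pooled polysome fractions of a sucrose gradient (polysomal RNA, mRNA loaded with ribosomes) and cytoplasmic RNA were hybridised. There were 4 groups of 3 arrays: polysomal 4EGI-1, polysomal control, cytoplasmic 4EGI-1 and cytoplasmic control. All cells are of 1 clone, and all lysates for the gradients contained cycloheximide, which holds ribosomes on mRNA. The sample titles call the cytoplasmic RNA total, and by the design text it was extracted with Trizol, which leaves nuclear RNA possible. Both RNAs of a treatment came from the same cell samples by that text, but it does not say that equal array numbers mark them. Replicates are called biological there without a word on separate cultures, so p-values measure the spread between these samples, which may be technical.

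The mitoribosome translates the few mRNAs of the mitochondrial genome, which encode core subunits of the respiratory chain and of ATP synthase. Its RNAs are made inside the organelle, but every one of its proteins is encoded in the nucleus, translated on cytosolic ribosomes and imported. Many subunits descend from bacterial ribosomal proteins, and the others were acquired later and line the surface or replace shortened rRNA. The mRNAs measured here are thus substrates of the cytosolic machinery that 4EGI-1 targets.

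The values are log2 RMA values, and each array was brought to a common scale, so each fold change stands against the remaining RNAs of that array and a change in total polysomal RNA is not measured. In these bulk samples, less RNA per cell and fewer cells that hold it cannot be told apart. Of 12 T cell markers, 11 were on the array and all 11 were above the filter, with group means from 6.58 (Cd5) to 12.35 (Thy1). Among the markers of other lineages, 3 of 5 B cell genes and 3 of 6 myeloid genes were above it, with Cd79a, Ms4a1, Lyz2, Csf1r and Cd14 below it. Above it were also 2 of 2 erythroid, 3 of 5 fibroblast and 3 of 5 epithelial genes, with group means of at most 7.72. The brightest of these markers was the myeloid Cd68, at 7.01 in polysomal 4EGI-1, 6.63 in polysomal control, 8.43 in cytoplasmic 4EGI-1 and 7.80 in cytoplasmic control RNA. The B cell gene Blnk averaged 7.14 in polysomal 4EGI-1 and 6.28 in polysomal control RNA, and 7.04 in cytoplasmic 4EGI-1 and 6.18 in cytoplasmic control RNA. The part of such cells in the results was not tested. Replicate arrays of polysomal RNA correlated at 0.996 to 0.997, and those of cytoplasmic RNA at 0.985 to 0.995. For the mitoribosomal genes the median SD over 3 arrays was 0.0615 in polysomal 4EGI-1 and 0.076 in polysomal control RNA, against 0.108 in cytoplasmic 4EGI-1 and 0.172 in cytoplasmic control RNA. The cytoplasmic comparisons are therefore the less precise ones. The fit pooled the spread of each gene over all 12 arrays. The standard errors (SE) and p-values below do not show this, so those of cytoplasmic RNA can look too certain.

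Relative to other mRNAs, polysomal RNA of 4EGI-1 cells held less mRNA of many mitoribosomal proteins than that of control cells. Of the 77 genes, 41 fell and 2 rose at an adjusted p below 0.05 in limma, with Benjamini-Hochberg adjustment over the 13180 genes tested. Across those 13180 genes, 12.1% fell and 13.0% rose. The median log2 change of the 77 genes was -0.28, with quartiles of -0.45 and -0.13, while the median of all genes tested was -0.03. The mean log2 value over the 77 genes was 9.34, 9.30 and 9.30 on the polysomal 4EGI-1 arrays, against 9.60, 9.62 and 9.60 on the polysomal control arrays. The arrays of the 2 groups did not overlap in this mean. Leaving out each of the 12 arrays in turn gave between 28 and 44 genes that fell.

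**Figure D1:**
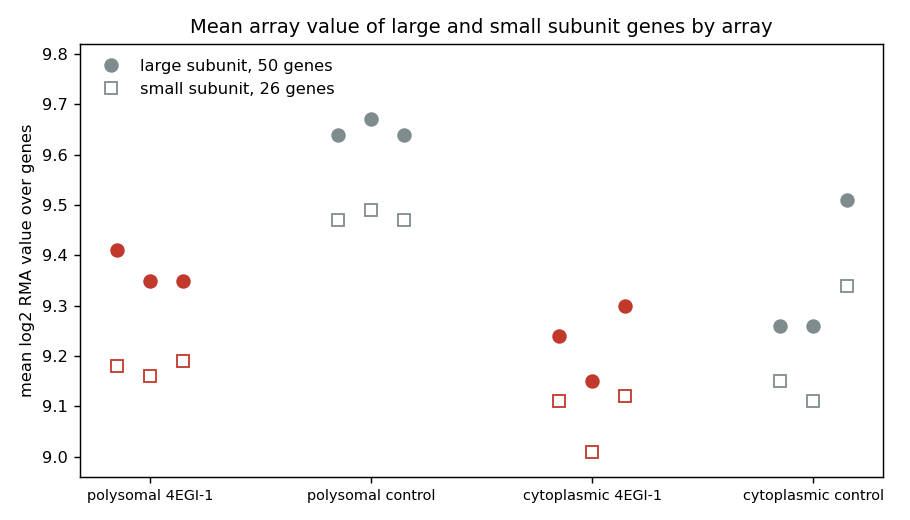
Mean log2 RMA value over the 50 large subunit genes (filled circles) and the 26 small subunit genes (open squares), 1 point per array, with 4EGI-1 in red and control in grey. The large subunit means were 9.41, 9.35 and 9.35 in polysomal 4EGI-1 RNA and 9.64, 9.67 and 9.64 in polysomal control RNA, and among the cytoplasmic control arrays array 3 stands apart at 9.51. Heights of circles and squares cannot be set against each other, since the genes differ in their probes.

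The counts of the subunits were close. In polysomal RNA, 25 of 50 large subunit genes fell and 1 rose (median -0.28), and 15 of 26 small subunit genes fell and 1 rose (median -0.29). By the current nomenclature of ribosomal proteins, 46 of the products have a bacterial homologue, and of their genes 26 fell and none rose (median -0.30). Of the 30 genes for subunits without one, 14 fell and 2 rose (median -0.25). The 41st gene that fell was Mrps36.

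Mrpl42, a large subunit gene without bacterial homologue, changed most. It had log2 values of 9.35, 9.22 and 9.12 in polysomal 4EGI-1 RNA, against 10.45, 10.33 and 10.47 in polysomal control RNA. The groups lay far apart next to the spread within either. The log2 change was -1.19 ± 0.10 (SE from the fit to all 12 arrays, 3 a group). This leaves 0.439 of the control level, at an adjusted p of 7.99e-07 in limma.

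Mrps21, homologue of the bacterial small subunit protein S21, had 10.15, 10.17 and 10.19 in polysomal 4EGI-1 RNA, against 10.87, 10.99 and 11.11 in polysomal control RNA. Its log2 change was -0.82 ± 0.09 (adjusted p = 1.36e-05). Mrps12 encodes the homologue of bacterial S12, a protein of the decoding centre known for its role in streptomycin sensitivity. It had 8.43, 8.50 and 8.45 in polysomal 4EGI-1 RNA, against 9.07, 9.26 and 9.17 in polysomal control RNA, a log2 change of -0.70 ± 0.09 (adjusted p = 5.02e-05). In both genes every 4EGI-1 array lay below every control array.

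Mrpl18, homologue of the bacterial 5S rRNA binding protein L18, had 11.51, 11.54 and 11.41 in polysomal 4EGI-1 RNA, against 12.09, 12.27 and 12.18 in polysomal control RNA. The log2 change was -0.70 ± 0.08 (adjusted p = 1.08e-05). Mrpl41, a subunit without bacterial homologue, had 10.79, 10.72 and 10.66, against 11.47, 11.38 and 11.39 in polysomal control RNA (log2 change -0.69 ± 0.10, adjusted p = 0.000108). None of the arrays overlapped between groups for these genes. A dimmer probe set of Mrpl41 changed by -0.45. Mrpl51 had 10.19, 10.25 and 10.08 in polysomal 4EGI-1 RNA, against 11.00, 11.01 and 10.99 in polysomal control RNA (log2 change -0.82 ± 0.11, adjusted p = 4.06e-05). A dimmer probe set of Mrpl51 changed by -0.38, and the mean of its 2 probe sets by -0.60 (adjusted p = 0.000531).

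The falls reached proteins of many places in the ribosome. Mrpl11, homologue of the bacterial stalk base protein L11, changed by -0.69 ± 0.08, and Mrpl12, homologue of the stalk protein L7/L12, by -0.43 ± 0.10. Mrpl12 had 8.42, 8.63 and 8.65 in polysomal 4EGI-1 RNA, against 8.90, 9.04 and 9.06 in polysomal control RNA, and its adjusted p was 0.00418. In the small subunit, Mrps17 changed by -0.64 ± 0.11, Mrps26 by -0.61 ± 0.16 and Mrps6 by -0.45 ± 0.10, each past the threshold. In contrast, 14 genes changed by less than 0.10 in either direction, among them the large subunit genes Mrpl39 (-0.01), Mrpl44 (-0.01) and Mrpl46 (-0.02) and the small subunit genes Mrps5 (-0.01) and Mrps2 (-0.04). For these 5 genes the SE was 0.08 to 0.10, and a missed threshold does not show an unchanged level.

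The 2 genes that rose did so by small amounts. Mrpl57, a mitochondria-specific large subunit gene, had 8.60, 8.52 and 8.41 in polysomal 4EGI-1 RNA, against 8.16, 8.20 and 8.27 in polysomal control RNA (log2 change 0.30 ± 0.08, adjusted p = 0.0147). Without polysomal 4EGI-1 array 1 its adjusted p was 0.0755, and without polysomal control array 1 it was 0.0626. Mrps31, a mitochondria-specific small subunit gene, had 11.19, 11.02 and 11.15 in polysomal 4EGI-1 RNA, against 10.89, 10.86 and 10.88 in polysomal control RNA (log2 change 0.24 ± 0.08, adjusted p = 0.0355). Its groups did not overlap, but the call was lost on leaving out any polysomal array other than 4EGI-1 array 2, with adjusted p between 0.0804 and 0.136.

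**Figure D2:**
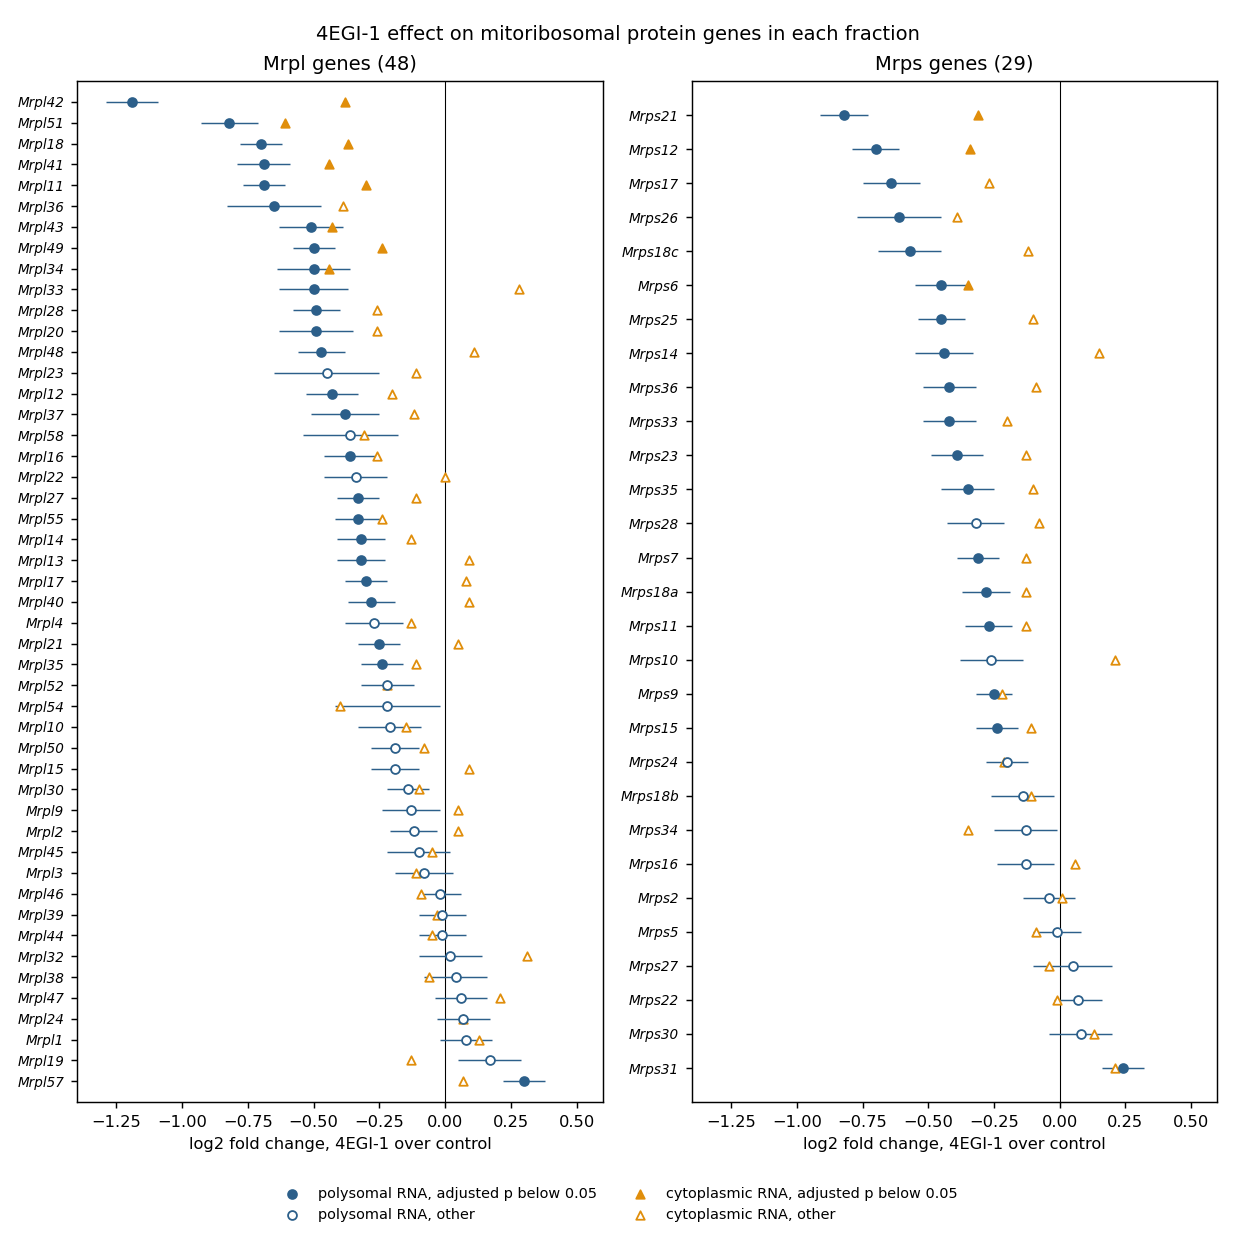
Log2 fold change, 4EGI-1 over control, of the 48 Mrpl genes (left) and 29 Mrps genes (right), ordered by the change in polysomal RNA. Blue circles with SE bars are polysomal RNA and orange triangles cytoplasmic RNA, filled where the adjusted p was below 0.05; 66 of the 77 circles lie left of 0, from -1.19 for Mrpl42 to 0.30 for Mrpl57.

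In cytoplasmic RNA fewer genes passed the threshold. Of the 77 genes, 11 fell and none rose, where 7.79% of all genes tested fell and 10.1% rose. The median log2 change was -0.11, against -0.03 for all genes tested. By subunit, 8 of 50 large and 3 of 26 small subunit genes fell. Mean log2 values over the 77 genes were 9.21, 9.12 and 9.25 on the cytoplasmic 4EGI-1 arrays, against 9.23, 9.23 and 9.46 on the cytoplasmic control arrays, so control array 3 was the highest cytoplasmic array and the groups overlapped. It lay 0.15 above its group mean for the 77 genes and 0.03 above it for all genes. Arrays 1 to 3 deviated from their group mean for the 77 genes by 0.01, -0.07 and 0.06 in the cytoplasmic 4EGI-1 group. In the cytoplasmic control group these deviations were -0.07, -0.08 and 0.15, so array 3 was the highest in both groups. Without control array 3, 4 genes fell and the median was -0.05, and in a fit of the 6 cytoplasmic arrays alone 2 fell. With array quality weights 23 fell and 11 rose, and with a replicate block within the fraction 21 fell. The count was also 18 without control array 2, 6 without 4EGI-1 array 1 and 5 without 4EGI-1 array 2. The part of control array 3 in the count of 11 beyond this was not tested.

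All 11 genes that fell in cytoplasmic RNA also fell in polysomal RNA. Across all genes tested, 7.79% fell in cytoplasmic and 12.1% in polysomal RNA. How many of those genes fell in both was not counted, so the overlap is not shown to be particular to the mitoribosomal genes. Mrpl51 had 9.78, 9.71 and 9.82 in cytoplasmic 4EGI-1 RNA, against 10.15, 10.33 and 10.66 in cytoplasmic control RNA (log2 change -0.61 ± 0.11, adjusted p = 0.000949). Its dimmer probe set changed by -0.03. Mrpl18 had 11.68, 11.61 and 11.65 in cytoplasmic 4EGI-1 RNA, against 12.07, 12.05 and 11.94 in cytoplasmic control RNA, a log2 change of -0.37 ± 0.08 (adjusted p = 0.00336). For Mrpl18 the groups were well apart and no array left out ended the call.

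Mrpl41 changed by -0.44 ± 0.10 in cytoplasmic RNA (adjusted p = 0.0058), Mrpl42 by -0.38 ± 0.10 (adjusted p = 0.0129) and Mrps12 by -0.34 ± 0.09 (adjusted p = 0.0179). The dimmer probe set of Mrpl41 changed by -0.19. The call of Mrpl42 ended without control array 3 (adjusted p = 0.0541) or 4EGI-1 array 1 (0.0594), and that of Mrps12 without 4EGI-1 array 2 (0.0752). With array quality weights Mrps12 changed by -0.14 (adjusted p = 0.168). In the limma fit of the 6 cytoplasmic arrays alone the calls of Mrps12 (0.0988), Mrpl42 (0.0701) and Mrpl41 (0.0546) ended. Mrpl43 changed by -0.43 ± 0.12 (adjusted p = 0.0183), which ended without control array 1 (0.063), control array 3 (0.0782), 4EGI-1 array 1 (0.0539) or 4EGI-1 array 2 (0.0727). Mrpl34 changed by -0.44 ± 0.14 (adjusted p = 0.0425), and this call ended in 10 of the 12 fits without 1 array, with adjusted p up to 0.186. The array values of Mrpl34 overlapped between the groups. The limma fit of the 6 cytoplasmic arrays alone ended the calls of Mrpl43 (0.101) and Mrpl34 (0.16) too. That of Mrpl34 also ended without a filter on dim genes (0.0729) and with array medians centred (0.0666).

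**Figure D3:**
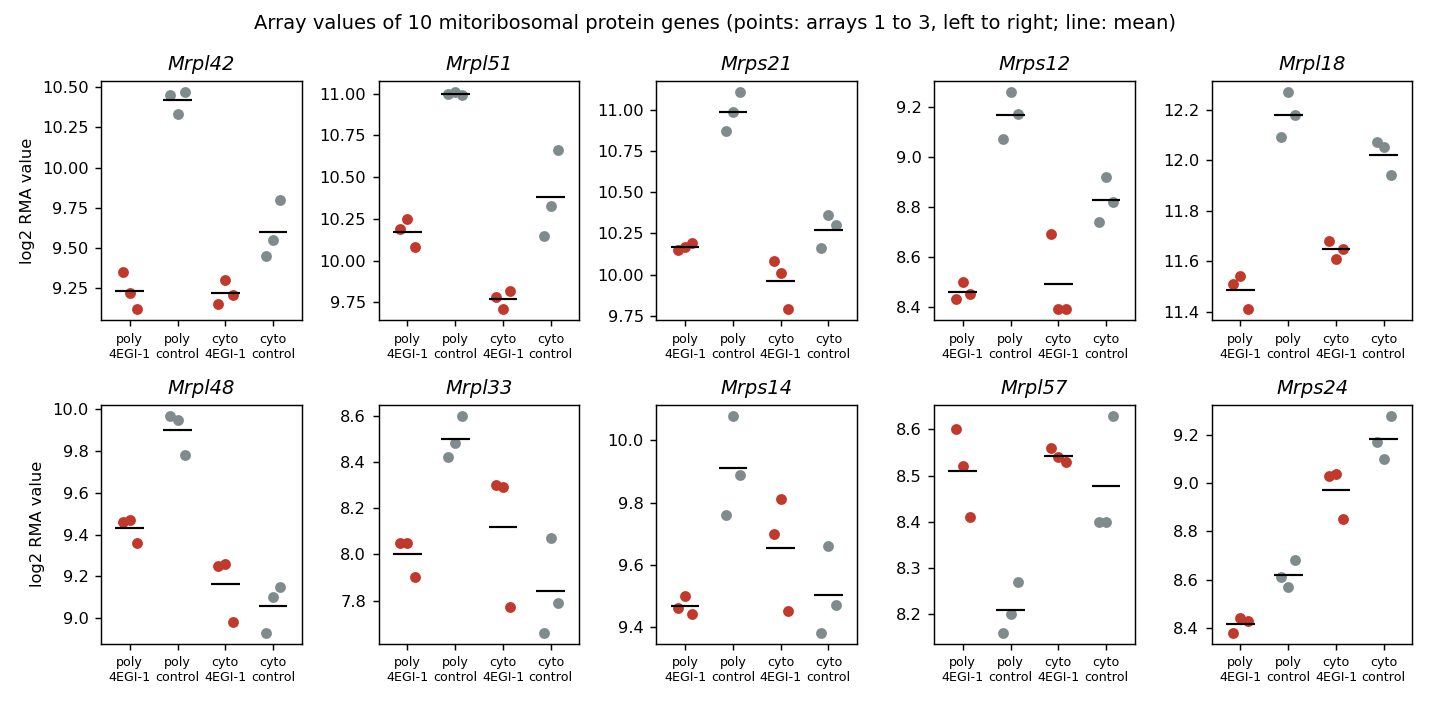
Log2 RMA values of 10 genes on each of the 12 arrays, with arrays 1 to 3 from left to right in each group, 4EGI-1 in red, control in grey and the group mean as a line; each panel has its own scale. For Mrpl42 the polysomal control arrays lie at 10.33 to 10.47 and the other 9 arrays at 9.12 to 9.80, and for Mrps24 all polysomal arrays lie below all cytoplasmic arrays.

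The change was more negative in polysomal than in cytoplasmic RNA for 63 of the 77 genes (81.8%), against 6988 of the 13180 genes tested (53%). These treatment comparisons share no arrays. Gene by gene, the difference of the 4EGI-1 effects (polysomal minus cytoplasmic) passed the threshold in 4 genes, all negative, where 0.607% of all genes tested were called in that direction and 2.31% in the other. The median difference was -0.18, against -0.01 for all genes tested. The count was 1 without a filter on dim genes, 1 under quantile normalization over the 12 arrays, and 30 negative with 2 positive under array quality weights. It was 1 in 8 of the 12 fits without 1 array; the other fits gave 5 without cytoplasmic control array 2, 3 without cytoplasmic control array 3, 5 without cytoplasmic 4EGI-1 array 3 and 2 without polysomal control array 3. For the other 73 genes the difference missed the threshold, which does not show equal effects in the 2 fractions.

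Mrpl42 gave the clearest difference, -0.81 ± 0.14 (adjusted p = 0.0039 in limma), from -1.19 in polysomal and -0.38 in cytoplasmic RNA. Its call held without any 1 of the 12 arrays, with adjusted p up to 0.018 over all settings. Mrpl33, homologue of the bacterial large subunit protein L33, had a difference of -0.78 ± 0.19 (adjusted p = 0.0372). It had 8.05, 8.05 and 7.90 in polysomal 4EGI-1 RNA, against 8.42, 8.48 and 8.60 in polysomal control RNA, and 8.30, 8.29 and 7.77 in cytoplasmic 4EGI-1 RNA, against 7.66, 8.07 and 7.79 in cytoplasmic control RNA. The polysomal groups were separate and the cytoplasmic ones overlapped.

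Mrpl48, a protein of the central protuberance of the large subunit, had a difference of -0.57 ± 0.13 (adjusted p = 0.0314). It had 9.46, 9.47 and 9.36 in polysomal 4EGI-1 RNA, against 9.97, 9.95 and 9.78 in polysomal control RNA, while its cytoplasmic change was 0.11 ± 0.09 (adjusted p = 0.495). Mrps14, homologue of bacterial S14, had a difference of -0.59 ± 0.15 (adjusted p = 0.0482), from -0.44 in polysomal and 0.15 in cytoplasmic RNA. The calls of Mrpl33 and Mrps14 were each lost in 10 of the 12 fits without 1 array and that of Mrpl48 in 8, with adjusted p up to 0.12 for Mrpl33, 0.155 for Mrps14 and 0.106 for Mrpl48. Leaving out cytoplasmic control array 2 kept all 3.

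Polysomal minus cytoplasmic values describe which share of an mRNA was found with polysomes, relative to the other mRNAs. In 4EGI-1 cells, 17 of the 77 genes were higher and 2 lower in polysomal than in cytoplasmic RNA (9.56% and 7.15% of all genes tested), with a median of 0.14. In control cells, 40 were higher and 3 lower (16.7% and 12.2% of all genes tested), with a median of 0.28. Of the 40 genes, 16 were also higher in 4EGI-1 cells and 24 were called in control cells alone. For each gene, the value in 4EGI-1 cells minus that in control cells is the same quantity as the difference of effects above. The gap between the 2 medians need not equal the median of these differences, -0.18. The control comparison also shares its polysomal control arrays with the polysomal treatment comparison. By subunit, 11 of 50 large and 6 of 26 small subunit genes were higher in polysomal RNA of 4EGI-1 cells, and 28 large and 12 small ones in that of control cells. Without polysomal 4EGI-1 array 1, 6 genes were higher in 4EGI-1 cells; without polysomal 4EGI-1 array 2 or 3, 10 were, and without cytoplasmic 4EGI-1 array 2, 11 were.

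Mrpl22, homologue of the exit tunnel protein L22, led both comparisons. In 4EGI-1 cells it had 9.01, 8.86 and 8.95 in polysomal RNA, against 8.33, 8.03 and 7.88 in cytoplasmic RNA (log2 difference 0.86 ± 0.12, adjusted p = 0.000397). In control cells it had 9.31, 9.31 and 9.22 in polysomal RNA, against 7.85, 8.30 and 8.08 in cytoplasmic RNA (1.21 ± 0.12, adjusted p = 5.44e-06). The fractions did not overlap in either treatment.

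Mrps18c, 1 of the 3 mammalian relatives of bacterial S18, followed. Its log2 difference was 0.67 ± 0.12 in 4EGI-1 cells (adjusted p = 0.00255) and 1.12 ± 0.12 in control cells (adjusted p = 1.43e-05). Its relative Mrps18a, a large subunit protein, had 9.51, 9.53 and 9.49 in polysomal 4EGI-1 RNA, against 9.17, 9.05 and 9.23 in cytoplasmic 4EGI-1 RNA (0.36 ± 0.09, adjusted p = 0.011). Its value in control cells was 0.51 ± 0.09 (adjusted p = 0.000419). Mrps18b differed by 0.11 ± 0.12 in 4EGI-1 cells and 0.14 ± 0.12 in control cells, neither past the threshold. The relatives thus had different values in the same arrays, with no test between them.

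Some genes had about equal values in the 2 treatments. Mrpl46, a protein of the central protuberance, had 9.31, 9.19 and 9.24 in polysomal 4EGI-1 RNA, against 8.77, 8.64 and 8.71 in cytoplasmic 4EGI-1 RNA, and 9.20, 9.32 and 9.28 in polysomal control RNA, against 8.72, 8.82 and 8.86 in cytoplasmic control RNA. The fractions were apart in both treatments. Its log2 differences were 0.54 ± 0.08 in 4EGI-1 cells (adjusted p = 0.00043) and 0.47 ± 0.08 in control cells (adjusted p = 0.000323). Mrps5, homologue of bacterial S5, had 0.49 ± 0.09 in 4EGI-1 cells (adjusted p = 0.00233) and 0.42 ± 0.09 in control cells (adjusted p = 0.00277). Neither gene changed past the threshold with 4EGI-1 in either fraction.

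In other genes the polysomal excess passed the threshold in control cells alone. The log2 difference of Mrpl42 was 0.01 ± 0.10 in 4EGI-1 cells (adjusted p = 0.968) and 0.81 ± 0.10 in control cells (adjusted p = 2.73e-05). That of Mrps21 was 0.21 ± 0.09 in 4EGI-1 cells (adjusted p = 0.144) and 0.72 ± 0.09 in control cells (adjusted p = 5.56e-05). For Mrps21 the difference of these values missed the threshold (-0.51 ± 0.13, adjusted p = 0.052). Mrpl23, homologue of L23 at the exit of the tunnel, had 0.38 ± 0.20 in 4EGI-1 cells (adjusted p = 0.212) and 0.72 ± 0.20 in control cells (adjusted p = 0.0126). That call ended without cytoplasmic control array 1 (adjusted p = 0.0627) or polysomal control array 2 (0.065). The difference of the 2 values of Mrpl23 missed the threshold in limma (-0.34 ± 0.28, adjusted p = 0.683). Mrps34 was the single gene called in 4EGI-1 cells alone (0.42 ± 0.12, adjusted p = 0.0268, against 0.20 ± 0.12, adjusted p = 0.235, in control cells). This call ended without any 1 of the polysomal 4EGI-1 arrays or cytoplasmic 4EGI-1 array 1 or 2, at adjusted p of 0.0696 to 0.103. The difference of the 2 values of Mrps34 missed the threshold in limma too (0.22 ± 0.17, adjusted p = 0.659).

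Few genes ran the other way. Mrps24, whose product is the relative of bacterial S3, had 8.38, 8.44 and 8.43 in polysomal 4EGI-1 RNA, against 9.03, 9.04 and 8.85 in cytoplasmic 4EGI-1 RNA (log2 difference -0.56 ± 0.08, adjusted p = 0.000509). In control cells it had 8.61, 8.57 and 8.68 in polysomal RNA, against 9.17, 9.10 and 9.28 in cytoplasmic RNA (-0.56 ± 0.08, adjusted p = 0.000111). Mrpl30 was lower in polysomal RNA too, by -0.30 ± 0.08 in 4EGI-1 cells (adjusted p = 0.0219) and -0.26 ± 0.08 in control cells (adjusted p = 0.0246). Its calls were lost once each array was centred on its median (adjusted p of 0.151 in 4EGI-1 cells and 0.168 in control cells). They also ended in 4EGI-1 cells without cytoplasmic array 3 (0.0736), polysomal array 1 (0.0867) or polysomal array 3 (0.0604), and in control cells without cytoplasmic array 1 (0.0629), cytoplasmic array 3 (0.0649) or polysomal array 1 (0.128). Mrpl57 was lower in control cells alone (-0.27 ± 0.08, adjusted p = 0.0257), with an adjusted p of 0.175 after such centring, 0.0939 without cytoplasmic control array 3, 0.0975 without polysomal control array 1 and 0.0702 without polysomal control array 2.

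**Figure D4:**
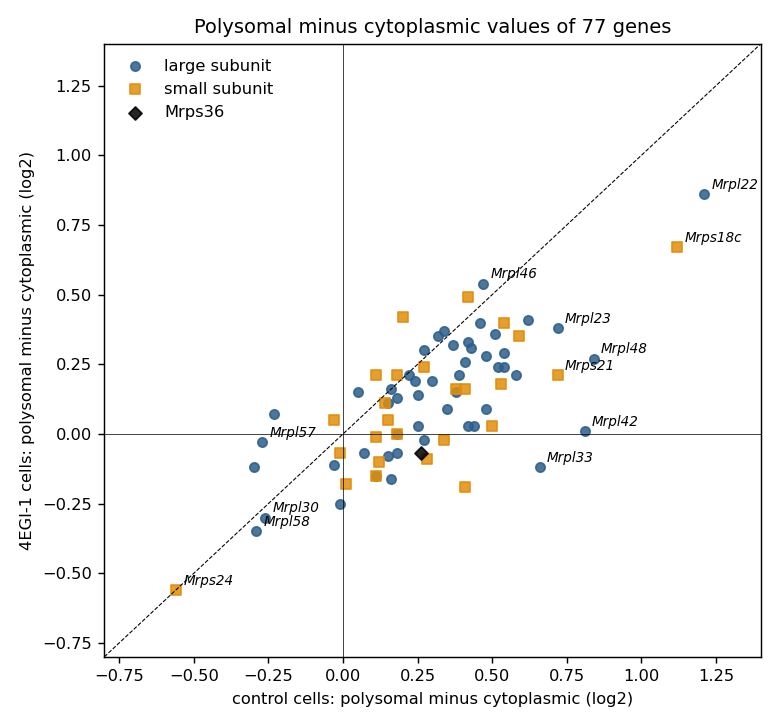
Polysomal minus cytoplasmic log2 value of the 77 genes in 4EGI-1 cells (vertical) and in control cells (horizontal), with large subunit genes as circles, small subunit genes as squares and Mrps36 as a diamond; the dashed line marks equal values. Most points lie below the line, as 63 of the 77 differences of effects are negative, and Mrpl42 sits at 0.01 in 4EGI-1 cells and 0.81 in control cells.

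The genes whose names mislead about their place showed no common pattern. Mrps30, a large subunit protein, had 9.56, 9.28 and 9.44 in polysomal 4EGI-1 RNA, against 9.51, 9.25 and 9.28 in polysomal control RNA (log2 change 0.08 ± 0.12, adjusted p = 0.719), so the groups overlapped. Mrps18a had 9.51, 9.53 and 9.49, against 9.64, 9.87 and 9.85 in polysomal control RNA (-0.28 ± 0.09, adjusted p = 0.0268). The call of Mrps18a ended without polysomal control array 2 or 3 or any polysomal 4EGI-1 array, at adjusted p of 0.0605 to 0.119. Mrps36 had 10.11, 10.19 and 10.02 in polysomal 4EGI-1 RNA, against 10.40, 10.46 and 10.73 in polysomal control RNA (-0.42 ± 0.10, adjusted p = 0.00451).

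Of the 77 genes, 8 were read by 2 probe sets, and in 6 of these both probe sets had a negative polysomal change. The dimmer one changed less for Mrpl41 (-0.45, against -0.69), Mrpl51 (-0.38, against -0.82) and Mrps33 (-0.15, against -0.42). It changed more for Mrpl23 (-0.54, against -0.45), Mrpl27 (-0.47, against -0.33) and Mrps36 (-0.49, against -0.42). Mrps5 had -0.01 for the brighter and 0.01 for the dimmer one, and Mrpl47 had 0.06 for the brighter and -0.30 for the dimmer one. For Mrpl47 the cytoplasmic changes were 0.21 and -0.26, so its direction is not settled. RefSeq names 6 pseudogenes of 4 of the genes (Mrpl23, Mrpl27, Mrpl48 and Mrps36). RNA of a gene and of a near-identical copy cannot be told apart by these probe sets, which makes the values of these 4 genes uncertain to that extent. Copies under other names were not searched for, so other genes may carry the same doubt.

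The mitoribosomal genes were set beside 2 related groups, chosen by name. Of 56 tested genes for proteins of the cytosolic ribosome, 17 fell in polysomal RNA (30.4%) and none rose (median -0.15). Of 80 nuclear genes of the respiratory chain, 46 fell (57.5%) and 1 rose (median -0.33). The shares over all genes tested were 12.1% that fell and 13.0% that rose. In control cells 6 cytosolic ribosomal genes (10.7%) were higher and 16 (28.6%) lower in polysomal than in cytoplasmic RNA (median -0.09). Among the respiratory chain genes 34 (42.5%) were higher and 4 (5%) lower (median 0.22). Over all genes tested, 16.7% were higher and 12.2% lower. The mitoribosomal values of -0.28 and 0.28 stand nearer to those of the respiratory chain, as a description without a test between the groups.

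Other parts of mitochondrial protein synthesis were counted against the same background, 13.0% of all genes tested that rose and 12.1% that fell in polysomal RNA. Of 16 genes on a list of translation factors and related proteins, such as Lrpprc, Slirp and Mtfmt, 5 rose and 2 fell in polysomal RNA. The 2 that fell were Slirp and Mtfmt. Of 25 assembly factors, 4 rose and none fell, and of 16 mitochondrial tRNA synthetases 2 rose and 1 fell. The rises of the assembly factors (16%) and of the synthetases (12.5%) were near that background. The medians of the 3 lists were 0.16, 0.18 and 0.13 in that order. In cytoplasmic RNA, 4 genes of the translation list (25%), 6 assembly factors (24%) and 3 synthetases (18.8%) rose, against 10.1% of all genes tested. None of the 3 lists had a gene that fell there, against 7.79% of all genes tested.

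On the translation list, Lrpprc and Slirp moved in opposite directions. Their products form a complex that stabilises mitochondrial mRNAs. Lrpprc had 10.33, 10.24 and 10.34 in polysomal 4EGI-1 RNA, against 9.21, 9.30 and 9.32 in polysomal control RNA, a log2 change of 1.03 ± 0.08 (adjusted p = 3.87e-07). Slirp had 9.93, 10.12 and 10.00 in polysomal 4EGI-1 RNA, against 10.72, 10.91 and 10.92 in polysomal control RNA, a log2 change of -0.83 ± 0.09 (adjusted p = 7.51e-06). Both genes had a cytoplasmic change of -0.14, past no threshold, and the difference of effects was 1.17 ± 0.11 for Lrpprc (adjusted p = 5.5e-05) and -0.70 ± 0.12 for Slirp (adjusted p = 0.0057).

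Gfm2, the factor that helps to recycle mitoribosomes, rose by 0.62 ± 0.08 in polysomal RNA (adjusted p = 7.94e-05) and by 0.36 ± 0.08 in cytoplasmic RNA (adjusted p = 0.00822). Mtif2, the initiation factor, rose by 0.34 ± 0.10 in polysomal RNA (adjusted p = 0.0206) and by 0.60 ± 0.10 in cytoplasmic RNA (adjusted p = 0.000792). Of the rRNA methyltransferases of the small subunit on the list, Mettl15 rose by 0.81 ± 0.11 (adjusted p = 5.06e-05) and Tfb1m by 0.35 ± 0.09 (adjusted p = 0.0114) in polysomal RNA. These rises were seen in cytoplasmic RNA too, at 0.61 ± 0.11 for Mettl15 (adjusted p = 0.000989) and 0.49 ± 0.09 for Tfb1m (adjusted p = 0.00175). Nsun4, another such methyltransferase, did not pass in polysomal RNA (0.03 ± 0.08, adjusted p = 0.833) or in cytoplasmic RNA (0.11 ± 0.08, adjusted p = 0.391).

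Genes of the import machinery, which mitoribosomal proteins need to reach the matrix, had mostly negative changes too. In polysomal RNA 11 of 25 fell (44%, against 12.1% of all genes tested) and none rose (median -0.27). In cytoplasmic RNA 2 fell (8%), near the 7.79% of all genes tested. Timm8b, a small chaperone of the intermembrane space, fell by 0.65 on the log2 scale (adjusted p = 0.000673) and Tomm7, a small subunit of the outer membrane translocase, fell by 0.57 (adjusted p = 0.000817). Of 4 further subunits of the mitoribosome with other names, Chchd1 fell. It had 9.13, 9.13 and 9.09 in polysomal 4EGI-1 RNA, against 9.77, 9.92 and 9.94 in polysomal control RNA (log2 change -0.76 ± 0.08, adjusted p = 7.59e-06), and its difference of effects was -0.61 ± 0.11 (adjusted p = 0.00716). Dap3 (-0.09), Gadd45gip1 (-0.15) and Ptcd3 (0.07) did not pass. Of 10 genes for the upkeep and transcription of mitochondrial DNA, 2 fell in polysomal RNA (20%) and 3 in cytoplasmic RNA (30%). Tfb2m, the transcription factor partner of the mitochondrial RNA polymerase, changed by -0.73 ± 0.15 in polysomal RNA (adjusted p = 0.00224).

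**Figure D5:**
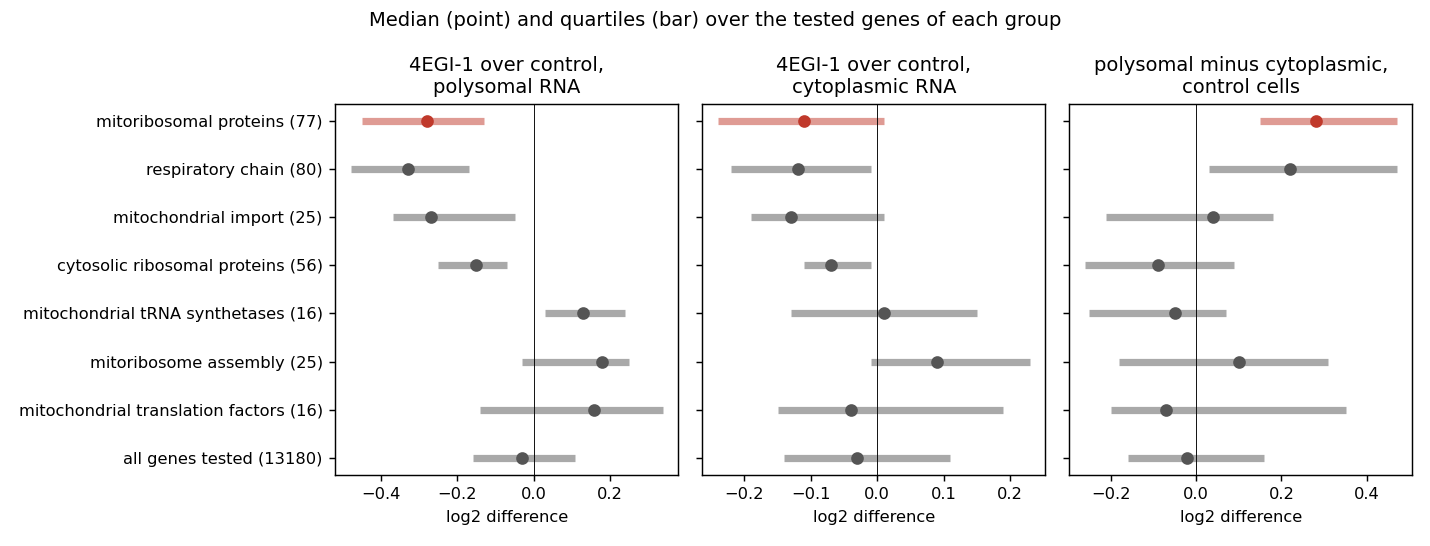
Median (point) and quartiles (bar) of the log2 difference over the tested genes of each group, with the number of genes in parentheses. In polysomal RNA the medians were -0.28 for mitoribosomal proteins (red), -0.33 for the respiratory chain, -0.27 for import and 0.18 for mitoribosome assembly, and each panel has its own horizontal scale.

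The 77 genes lie on 17 chromosomes, and their promoters were compared to see what the sequences share. RefSeq promoter windows (assembly GRCm38.p6, 250 bases before to 50 bases after a start) were held for 68 of the 77 genes. Mrpl4, Mrpl13, Mrpl15, Mrpl19, Mrpl38, Mrpl54, Mrps28, Mrps34 and Mrps35 had none. The letters CCGGAAG, a core bound by ETS factors such as GABP (also known as NRF2), stood on either strand in 25 of the 68 genes (36.8%), against 12.9% of 17492 coding genes. The YY1 core, which is also the TISU element of mRNAs with short leaders and is spelled out in capitals with the sequences of 4 genes, stood on the gene strand in 4 (5.88%), against 1.06% of coding genes. On either strand it stood in 5 (7.35%), against 1.41%. Both motifs are known from nuclear genes of mitochondrial proteins. GGGCGG, a core of SP1 sites, was as frequent as elsewhere on either strand (50.0%, against 49.2%), and TATAAA was found in 7.35%, against 14.8%. A match of letters is a description and no measured site.

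The windows of 5 genes discussed above are shown over the 100 bases before the start, 5′ to 3′ on the gene strand, with CCGGAAG in capitals. These 5 were picked and do not represent the 68 genes, of which 25 have the letters in the full window. Mrpl42 has none, Mrpl43 has 2, and the others have 1. They lie at chr11:58171564-58171663 (plus strand) for Mrpl22, chr6:125192100-125192199 (plus) for Mrpl51, chr8:71464826-71464925 (plus) for Mrpl34, chr19:45006443-45006542 (minus) for Mrpl43 and chr10:95501950-95502049 (minus) for Mrpl42.
Mrpl22: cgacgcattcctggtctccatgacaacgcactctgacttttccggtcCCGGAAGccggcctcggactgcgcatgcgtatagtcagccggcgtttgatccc
Mrpl51: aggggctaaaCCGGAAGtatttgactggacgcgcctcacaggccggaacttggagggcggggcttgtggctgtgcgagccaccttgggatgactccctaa
Mrpl34: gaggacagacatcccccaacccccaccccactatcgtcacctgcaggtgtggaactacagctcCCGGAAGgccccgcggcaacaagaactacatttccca
Mrpl43: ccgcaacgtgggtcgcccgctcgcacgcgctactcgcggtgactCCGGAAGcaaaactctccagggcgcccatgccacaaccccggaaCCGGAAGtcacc
Mrpl42: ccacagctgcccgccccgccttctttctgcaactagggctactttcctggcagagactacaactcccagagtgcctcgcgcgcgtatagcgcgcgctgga

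The 4 genes with the YY1 letters carry them just after the start, shown here in capitals with 8 bases on each side. They lie at chr6:71823744-71823769 (minus strand) for Mrpl35, chr4:107066823-107066848 (minus) for Mrpl37, chr17:46111007-46111032 (plus) for Mrps18a and chr13:99344792-99344817 (plus) for Mrps27. The match begins 23, 26, 11 and 14 bases after the first transcribed base in that order.
Mrpl35: caggctgcAAGATGGCGGcttccatc
Mrpl37: cacgggcaAAGATGGCGGcgtccagg
Mrps18a: tgcgttccAAGATGGCGGccctcagg
Mrps27: tgcgctccAAGATGGCGGctcccatg

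The polysomal changes of genes with and without these letters were as follows. Of the 25 genes with CCGGAAG, 16 fell in polysomal RNA and 1 rose (median -0.36), and of the 43 without it 23 fell and 1 rose (median -0.26). Across all genes tested, 12.1% fell and 13.0% rose, and calls of other genes with these letters were not counted. Mrpl42, which changed most, has no match in the stretch shown. Of the 4 genes with the YY1 letters 3 fell, by 0.24 (Mrpl35), 0.38 (Mrpl37) and 0.28 (Mrps18a) on the log2 scale, while Mrps27 changed by 0.05 ± 0.15 (adjusted p = 0.854).

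Starts that face away from another coding gene within 500 bases were common: 22 of the 68 genes (32.4%), against 7.72% of coding genes. Of these 22, 13 fell in polysomal RNA, as did 26 of the other 46, where 12.1% of all genes tested fell. Within the group, Mrps11 and Mrpl46 start in opposite directions from either side of 41 bases at chr7:78783090-78783130, shown on the plus strand.
Between Mrps11 and Mrpl46: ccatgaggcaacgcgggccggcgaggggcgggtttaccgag
From this shared stretch, Mrps11 changed by -0.27 ± 0.09 in polysomal RNA (adjusted p = 0.0358) and Mrpl46 by -0.02 ± 0.08 (adjusted p = 0.906). Their polysomal minus cytoplasmic values were near each other, at 0.40 for Mrps11 and 0.54 for Mrpl46 in 4EGI-1 cells, and 0.54 for Mrps11 and 0.47 for Mrpl46 in control cells.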

How the data were processed

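The deposited values are log2 expression values per probe set, made by the authors with RMA, per the submitters' processing notes; its version is not stated there. RNA was amplified with a whole-transcript kit (NuGEN Applause WT-Amp ST), per the labels' protocols. No count or depth underlies an array, so the 3 arrays a group limit the precision. The table held 34760 probe sets, of which 21640 had 1 gene symbol, 1321 several and 11799 none in the platform annotation. The brightest probe set stood for each of 19937 genes, and 13180 genes with a mean at or above the 40th percentile (6.00) were tested.

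Group means over the 12 arrays were fitted with limma 3.58.1 in R 4.3.3 (prior df 6.83), without a replicate block, and p-values were adjusted over all tested genes by Benjamini-Hochberg, with 0.05 as threshold. The fit was tested on simulated data. Polysomal and cytoplasmic arrays share 1 RMA scale. Alternatives were other normalizations, filters, priors, array weights, all probe sets of a gene, the 6 arrays of a comparison alone, a replicate block and leaving out each array. Sequences came from RefSeq (GRCm38.p6).

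The members, gene lists and motifs were chosen with earlier results of these data known. Genes named with array values were, per comparison, the 6 with the largest change in each direction among those that passed, and Mrpl12, Mrps12, Mrpl42, Mrps36, Mrps30 and Mrps18a. Of each pathway list, up to 3 genes with the smallest p in a comparison were named. Mrpl46, Mrps11, Mrpl11, Mrps17, Mrps26, Mrps6, Mrps18b and the unchanged examples were picked after their values were seen.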

Additional observations from a re-analysis of the deposited data

Results flagged for a closer look

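A test of the difference between the 4EGI-1 effects in the 2 RNA fractions passed the threshold in 4 of the 77 mitoribosomal protein genes. All 4 differences were negative, where 0.607% of all genes tested were called in that direction. The log2 difference, polysomal minus cytoplasmic effect, was -0.81 for Mrpl42, -0.78 for Mrpl33, -0.59 for Mrps14 and -0.57 for Mrpl48. The call of Mrpl42 alone held in all 12 fits without 1 array. The calls of Mrpl33 and Mrps14 were lost in 10 of these fits and that of Mrpl48 in 8. Without a filter on dim genes, or under quantile normalization over the 12 arrays, 1 gene was called. For Mrpl42 the change was negative in both fractions, while the cytoplasmic changes of Mrpl33 (0.28, adjusted p = 0.168), Mrps14 (0.15, adjusted p = 0.377) and Mrpl48 (0.11, adjusted p = 0.495) were positive and missed the threshold in limma. Groups of 3 arrays were not tested for outlying single arrays; the values of cytoplasmic control array 3 are given with the cytoplasmic comparison.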

How the results depend on the processing

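No value that passed the threshold changed direction under any alternative run. Of the values that did not pass, 5 crossed 0: the difference of effects of Mrps30 (-0.21 to 0.04), the polysomal minus cytoplasmic values of Mrpl42 (-0.05 to 0.11), Mrps12 (-0.17 to 0.07) and Mrps36 (-0.12 to 0.02) in 4EGI-1 cells, and that of Mrpl12 (-0.08 to 0.08) in control cells. The numbers of genes called moved most with array quality weights: 23 fell and 11 rose in cytoplasmic RNA, 30 of the differences of effects were negative and 2 positive, and polysomal minus cytoplasmic calls were 32 higher and 8 lower in 4EGI-1 cells and 5 lower in control cells. Without a filter on dim genes, 7 fell in cytoplasmic RNA, 1 rose in polysomal RNA and 1 difference of effects was called. With array medians centred, 1 rose in polysomal RNA, 1 was lower in polysomal than in cytoplasmic RNA in each treatment, and the median in 4EGI-1 cells was 0.24. Quantile normalization over the 12 arrays gave 1 rise in cytoplasmic RNA and 1 difference of effects, and both quantile normalization within a fraction and a prior with an intensity trend gave 1 such rise. In the 6 arrays alone, 2 fell in cytoplasmic RNA and 1 was lower in polysomal RNA of control cells. The causes were not tested. Leaving out 1 array gave 4 to 18 falls and 0 to 1 rises in cytoplasmic RNA (median -0.16 to -0.05), 28 to 44 falls and 0 to 2 rises in polysomal RNA (median -0.31 to -0.28), and 1 to 5 negative differences of effects (median -0.26 to -0.10). Polysomal minus cytoplasmic calls were then 6 to 21 higher and 1 to 2 lower in 4EGI-1 cells (median 0.05 to 0.17), and 30 to 48 higher and 1 to 6 lower in control cells (median 0.24 to 0.39). Of 982 values of named genes under the other settings, 918 kept their side of the threshold, 48 lost it and 16 gained it. Same-numbered arrays did not deviate together throughout: the correlations were -0.22, 0.56 and 0.52 between cytoplasmic 4EGI-1 and control arrays, and 0.08, 0.16 and -0.06 between polysomal ones, and -0.03 to 0.23 between cytoplasmic and polysomal ones, so the numbers were not taken as pairs, although the design text has both RNAs drawn from the same cells. With a replicate block within each fraction, 21 genes fell in cytoplasmic RNA; with a replicate block over all arrays, 91 of 93 values of named genes kept their call and 2 gained one (polysomal minus cytoplasmic Mrps30 in 4EGI-1 cells, adjusted p = 0.0483, and Mrps36 in control cells, adjusted p = 0.0441).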

Other observations

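Of the coding genes that share a start region with a mitoribosomal gene, 19 were tested. In polysomal RNA of 4EGI-1 cells 4 of them fell and 3 rose, with a median of -0.02. Of all genes tested, 12.1% fell and 13.0% rose, and the counts of the 19 genes were not tested against these shares. Fau, beside Mrpl49 (-0.50), changed by -0.52 (adjusted p = 0.000391 in limma). Sars2, beside Mrps12 (-0.70), changed by 0.17, and Tcp1, beside Mrpl18 (-0.70), by -0.02. Mrpl57 (0.30) and its neighbour Ska3 (-0.35) had opposite signs.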
